A study of Mus musculus with 32 samples.

Results

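Tropomyosins and tensins are gene families of the actin cytoskeleton, and the report covers their 8 mouse genes, *Tpm1* to *Tpm4* and *Tns1* to *Tns4*. The genes were taken by symbol from the gene table of each cell type, and the IGF2BP3 peaks by the Ensembl gene ID that each peak carries. All 8 are listed in both tables, which share 23620 gene IDs. The values that chose this group were the peaks themselves and the comparison of genotypes in the same tables, so the number of peaks on these genes is given as a description. Of the 8 genes, 7 carried at least 1 peak and *Tns2* carried none. By cell type, 4 of 8 had a site in Lin- and 6 of 8 in CD11b+ cells, where 26.5% and 25.6% of all genes listed had one.

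The series holds 32 libraries from mouse cells that carry MLL-Af4, a fusion oncogene delivered with a retrovirus. Lin- cells are lineage-depleted bone marrow cells of C57BL/6J background, transduced with MLL-Af4, drug-selected and grown in culture with cytokines, so they are a cultured model. CD11b+ cells were selected with magnetic beads from splenic tumors of mice with MLL-Af4 leukemia. RNA-seq was done on 3 wild type and 3 I3KO libraries of each cell type, where I3KO is a germline deletion of *Igf2bp3*, the gene of the immunoprecipitated protein, that arose in mice with a floxed exon 2 and Cre under the *Vav1* promoter. eCLIP of IGF2BP3, which crosslinks protein to RNA and sequences the fragments that come down with an antibody, was done in wild type cells with MLL-Af4 and without further treatment. It comprised 6 Lin- libraries, 3 labelled biological and 3 technical, and 4 CD11b+ libraries, 2 of each kind. Each had a size-matched input (smInput), a library from the same lysate without the pulldown. The labels give no age and do not say which animals or cultures the libraries came from, so a spread between libraries may be technical. The titles of the CD11b+ eCLIP libraries name the cell type but no tissue, and the tissue of that set was taken from the study's methods.

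Tropomyosins are coiled-coil proteins that lie end to end along actin filaments and decide which myosins and other factors may bind there. Tensins are adaptors at focal adhesions, where they connect the cytoplasmic tails of integrins to actin filaments and to signaling proteins. IGF2BP3 is an oncofetal RNA-binding protein with KH and RRM domains that is known to favor CA-rich sequence and to affect the stability of its target transcripts.

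Most of the 33 sites on these transcripts held either a run of alternating T and G, or of its reverse complement, alternating C and A, or lay within 100 nt of a splice site. There were 10 sites with such a run and away from splice sites, 15 near a splice site and without a run, 2 with both, on *Tns1* and *Tpm1*, and 6 with neither. The 2 kinds are shown because they were found in different shares in the cell types. The first were runs in an intron or in a 3' UTR. Windows of 30 bases around the summit of the strongest peak are given from 5' to 3' on the strand of the gene (GRCm38), with capitals for every run of at least 6 alternating T and G, or C and A, and with introns numbered in the longest basic transcript of the gene:
*Tns3*, intron 10, chr11:8533040-8533069, minus strand: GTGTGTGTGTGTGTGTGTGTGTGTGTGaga
*Tns3*, intron 4, chr11:8574589-8574618, minus strand: gtgaGTGTGTGcgcgcgagagaGTGTGTGa
*Tns3*, 3' UTR, chr11:8432864-8432893, minus strand: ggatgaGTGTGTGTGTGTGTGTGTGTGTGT
*Tns1*, intron 18, chr1:73963092-73963121, minus strand: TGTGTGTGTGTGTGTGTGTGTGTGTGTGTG
*Tns3*, intron 2, chr11:8609001-8609030, minus strand: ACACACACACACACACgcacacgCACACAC
*Tns4*, 3' UTR, chr11:99066252-99066281, minus strand: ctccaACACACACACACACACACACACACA
Such repeats occur at many places of the genome, and how surely the reads were placed was not tested.

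The second kind lay at the edges of exons. Windows of 30 bases around the splice site are given for sites that reached across one, with the exon in capitals and the intron in lower case. The first was found in CD11b+ cells alone, the fourth in both cell types and the others in Lin- cells alone:
*Tpm3*, start of an exon, chr3:90087440-90087469, plus strand: ttctgtttccggcagAGGTATGAAGGTGAT
*Tpm3*, end of an exon, chr3:90087557-90087586, plus strand: TAGGAAGTATGAAGAGgtgagttgcctctg
*Tpm3*, start of an exon, chr3:90087659-90087688, plus strand: ggtcttttcttctagGTGGCTCGTAAGTTG
*Tpm3*, start of an exon, chr3:90088386-90088415, plus strand: gactgtcactaacagCCGTTGCCGAGAGAT
*Tns1*, start of an exon, chr1:73921838-73921867, minus strand: gtttccttccttagACAATAGTCCGGAGAC
*Tns1*, start of an exon, chr1:73942091-73942120, minus strand: gcccttcctcccagGGGTTCAGGCTCGGGA
A site counted as near a splice site when it lay within 100 nt of an exon edge of its gene, and both this count and that of TG repeats were chosen after the sites had been seen.

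The eCLIP lists held 4040 to 10042 filtered peaks for a Lin- library and 7085 to 10054 for a CD11b+ library, where filtered means that the authors removed peaks overlapping the smInput. Read depth is unknown, so yield could be judged by the number of filtered peaks alone, and the lack of a peak does not show that IGF2BP3 left a transcript unbound. Lin- libraries 2 and 5 stood apart, with 51.4% and 48.1% of their peaks within 100 nt of a splice site, against 65.2% to 76.6% in the other 4. The labelled cell types were checked in the gene tables. The progenitor genes *Kit*, *Cd34* and *Flt3* stood at the 93.6th to 98.2nd percentile in Lin- cells and the 63.9th to 86.0th in CD11b+ cells. The 6 progenitor markers summed to 131262 and 87349 normalized counts. Of these, *Mpo* alone had 101212 and 84102, so the sums rested mostly on this gene. The 6 myeloid markers, 5 of them listed for Lin- cells, summed to 35821 and 109418. By percentile, *Lyz2*, *Csf1r* and *Ly6c2* differed little, at the 97.1st to 99.9th in CD11b+ and the 95.1st to 99.8th in Lin- cells. The percentiles of these genes did little to separate the labels. *Adgre1* stood at the 90.6th percentile in CD11b+ and the 75.2nd in Lin- cells, and *Cebpb* at the 96.7th and the 92.3rd. *Itgam*, which encodes CD11b itself, had a mean normalized count of 17.0 in CD11b+ cells, at the 30.4th percentile, and was not listed for Lin- cells. The defining marker of the label was therefore low in that table.

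RNA levels of the 8 genes came as 1 mean normalized count per gene and cell type, pooled by the authors over both genotypes, so they have no error. To compare genes, the count was divided by the length of the gene's merged exons, and to set the cell types side by side, the result was placed as a percentile among all genes of its table with a level above 0. In bulk RNA, fewer cells of a type and less RNA per cell cannot be told apart.

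*Tpm3*, which encodes cytoskeletal tropomyosins of non-muscle cells, had the highest level of the 8 in both cell types, with 3109 normalized counts per kb in Lin- and 4278 in CD11b+ cells. It stood at the 97.9th and the 97.8th percentile. *Tpm4*, a cytoskeletal tropomyosin that is abundant in platelets, came next with 1281 and 1190 per kb, at the 93.3rd and 93.8th percentile. *Tns3*, an adaptor of focal adhesions, was the third in both with 543 and 332 per kb, at the 83.0th and 80.9th percentile. The order of these 3 genes was the same in both cell types, and the absence of replicate values leaves the distances between them without a test.

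The other 5 genes changed places. *Tpm1*, which is used by muscle and non-muscle cells, stood at the 77.2nd percentile in Lin- and at the 56.8th in CD11b+ cells, with 378 and 60.7 normalized counts per kb. *Tns1*, the founding member of the tensins, stood at the 67.0th and the 54.6th percentile, with 194 and 49.4 per kb. *Tpm2*, a tropomyosin best known from muscle, stood at the 53.4th percentile in Lin- and at the 23.8th in CD11b+ cells, with 51.8 and 1.76 per kb. *Tns4*, a short tensin without the actin-binding part of the others, went the other way, from the 45.2nd to the 63.5th percentile, with 18.7 and 104 per kb. *Tns2* was low in both, with 2.09 and 5.84 per kb.

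Markers of other cell types were checked beside the levels. Their counts and sums are set side by side without a test, and the tables were normalized separately, which limits the comparison. The 5 megakaryocyte and platelet markers summed to 2667 normalized counts in Lin- cells, where *Itga2b* had 1922 and *Pf4* 393, and to 65.7 in CD11b+ cells, where 4 of the 5 were listed. The 6 stromal and smooth muscle markers summed to 324 and 336, but members of this list differed. The smooth muscle gene *Myh11* stood at the 4.91st percentile in Lin- and at the 46.5th in CD11b+ cells, where it had 130 normalized counts. *Col1a2*, *Col3a1* and *Dcn* had 26.9, 22.3 and 31.5 in Lin- and 2.90, 2.49 and 1.14 in CD11b+ cells, while *Col1a1* had 25.7 and 32.6 and *Pdgfrb* 216 and 167. The 4 endothelial markers summed to 72.7 and 13.3, and the 4 lymphocyte markers to 8.08 and 256, with 3 of them listed for Lin- cells. The 4 red cell markers summed to 97.7 and 2414. The megakaryocyte and endothelial lists, *Col1a2*, *Col3a1*, *Dcn* and *Pdgfrb* were thus higher in Lin- cells, where *Tpm1*, *Tpm2* and *Tns1* stood at higher percentiles. The lymphocyte and red cell lists, *Col1a1* and *Myh11* were higher in CD11b+ cells. The part of such cells in these levels was not tested.

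**Figure D1:**
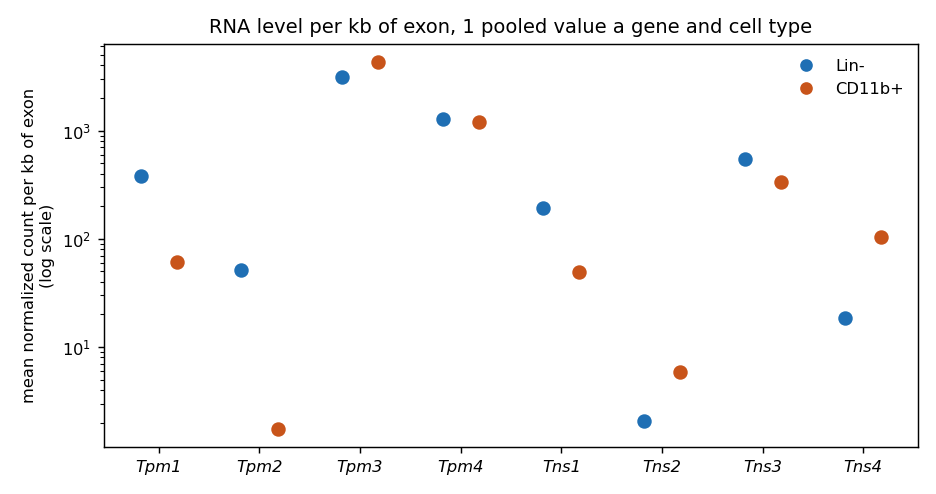
Mean normalized count per kb of exon (log scale) of each gene in Lin- cells (blue) and CD11b+ cells (orange), 1 point per gene and cell type as pooled by the authors, with no error. The tables were normalized separately, so points are compared within a color. *Tpm3*, *Tpm4* and *Tns3* lead in both, and *Tns2* in Lin- (2.09) and *Tpm2* in CD11b+ cells (1.76) are the lowest.

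The 10 eCLIP libraries held 57 filtered peaks on the 8 genes, which is 0.0766% of all 74378. They had 3 to 24 reads, with a median of 5 against 6 over all filtered peaks, where the read number is the last number in a peak's name, as the peak caller is known to write it. Of the 57 peaks, 22 had fewer than 5 reads, or 38.6% against 30.9% of all peaks. None had been removed by the filter on smInput, since 57 peaks were called before it as well. Over all called peaks, the filter removed 12.4% to 25.9% in a Lin- library and 10.8% to 17.3% in a CD11b+ library. Most of the values on these genes thus rest on a handful of reads.

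*Tns3* carried 26 of the 57 peaks. In the biological Lin- libraries 1, 2 and 3 it had 1, 4 and 2 peaks, and in the technical libraries 4, 5 and 6 it had 0, 1 and 1. In CD11b+ cells it had 4 and 5 peaks in the biological and 4 and 4 in the technical libraries. Per 10000 filtered peaks of the library, this was 1.36, 3.98 and 2.30 in the biological Lin- libraries against 4.69 and 4.97 in the biological CD11b+ libraries, so that the groups did not overlap. The technical libraries gave 0 to 2.22 in Lin- and 5.27 to 5.65 in CD11b+ cells.

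The peak rate per 10000 was compared between the cell types over the biological libraries for each of 9290 genes with a peak. A gene was called where the 3 Lin- and 2 CD11b+ libraries did not overlap. Since peaks were among the values that chose the 8 genes, their rates are described and given no p. For *Tns3*, the mean rate was 2.55 ± 1.33 (SD, n = 3) in Lin- and 4.83 in CD11b+ cells (n = 2), a difference of 2.29. Of the 6 members with a peak in a biological library, *Tns3* was the 1 called higher in CD11b+ cells, where 10.6% of all genes tested were called in that direction. No member was called higher in Lin- cells, against 9.34% of all genes. Nothing is read from these counts about the 8 genes. The call was lost, with 2.17 more peaks in CD11b+ cells, when peaks were not scaled to the library, and lost again when peaks under 5 reads were left out, where the difference was 3.68 per 10000.

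*Tpm3* carried 13 peaks, with 3, 0 and 2 in the biological Lin- libraries, 2, 0 and 2 in the technical ones, and 1, 1, 2 and 0 in CD11b+ libraries 1 to 4. Both Lin- libraries without a *Tpm3* peak were those that stood apart, 2 and 5. The rates were 4.08, 0 and 2.30 against 1.17 and 0.995, which overlapped. The mean difference, CD11b+ minus Lin-, was -1.04. It was -2.11, without overlap, when Lin- library 2 was left out, -0.07 when Lin- library 1 was left out and -0.05 with a deposited p-value below 0.001, and it turned to 0.683 when peaks under 5 reads were left out.

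The other genes carried few peaks. *Tns4* had none in the 6 Lin- libraries and 2, 0, 3 and 1 in CD11b+ libraries 1 to 4, the cells in which its RNA stood at the higher percentile. *Tns3* had the higher peak rate in CD11b+ cells, but its RNA stood at the 80.9th percentile there and the 83.0th in Lin- cells. *Tns1* had 2 peaks in each of Lin- libraries 3 and 6 and none in the other 4, and 0, 1, 2 and 1 in CD11b+ libraries. *Tpm4* had 1 peak in each of CD11b+ libraries 2 and 4 and none in Lin- cells, although its RNA was the second highest of the 8 in both. *Tpm1* had 1 peak, in CD11b+ library 2, although its RNA stood at the higher percentile in Lin- cells. *Tpm2* had 1 peak of 11 nt and 3 reads, in the technical Lin- library 5, whose own smInput held 217 peaks against 1047 to 1808 in the other Lin- inputs. For these 4 genes with a biological peak, *Tns4*, *Tns1*, *Tpm4* and *Tpm1*, the groups overlapped. Leaving out CD11b+ library 1 took the differences of *Tpm1* and *Tpm4* to 0.995 each and that of *Tns4* to 0, and leaving out CD11b+ library 2 took those of *Tpm1* and *Tpm4* to 0 and that of *Tns4* to 2.35. Where this ended the overlap, it rested on 1 CD11b+ library. The sign of the *Tns1* difference of -0.27 turned to 0.50 without Lin- library 3 and to 0.23 without CD11b+ library 1.

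**Figure D2:**
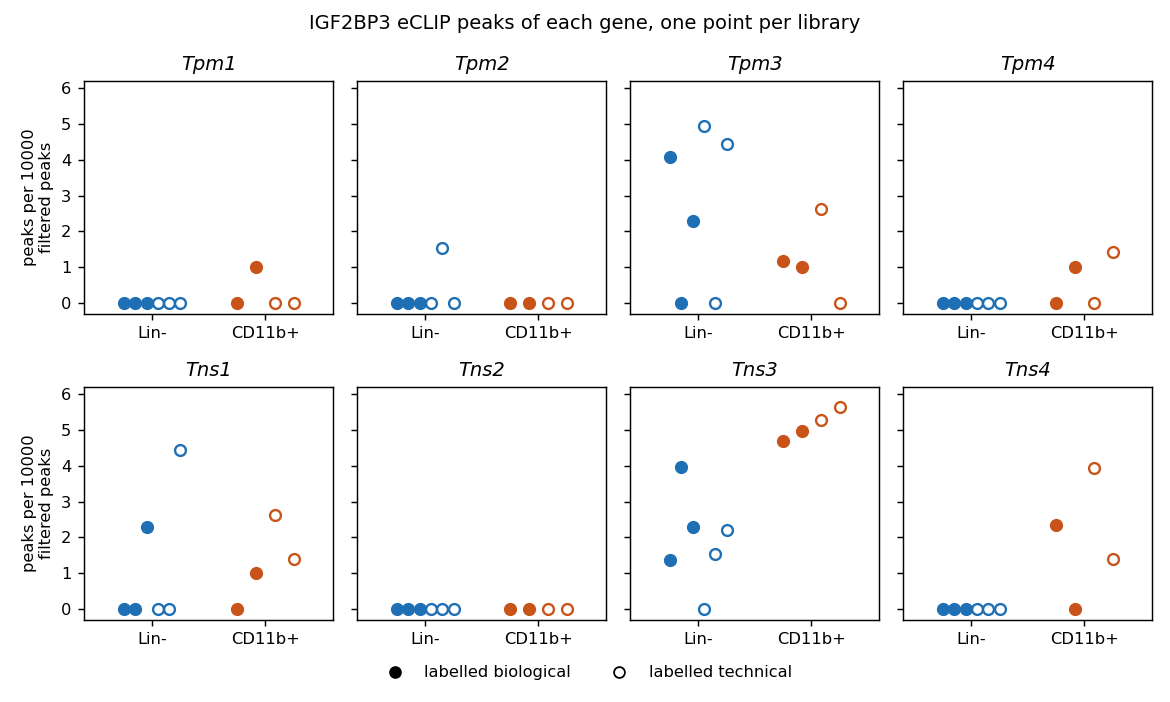
Filtered peaks of each gene per 10000 filtered peaks of the library, for 6 Lin- (blue) and 4 CD11b+ (orange) eCLIP libraries, in order of library number, filled where labelled biological and open where labelled technical. *Tns3* is at 4.69 to 5.65 in all 4 CD11b+ libraries, above the 0 to 3.98 of the 6 Lin- libraries, and *Tns2* is at 0 in all 10.

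In the smInput libraries, the 8 genes carried 4 peaks, all on *Tpm2*. They lay at the same place in an intron, chr4:43518475-43518487, with 4 to 7 reads, in CD11b+ inputs 1, 2 and 4 and Lin- input 1. This is 4698 nt from the eCLIP site of *Tpm2*. Inputs were called with other settings and held 217 to 1885 peaks, so the counts are set side by side without a test.

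Peaks that overlapped on a strand were merged into sites. Over both cell types the 8 genes had 33 sites, 13 on tropomyosins and 20 on tensins, of 11 to 102 nt. In each cell type alone there were 17 sites in Lin- and 20 in CD11b+ cells. Of the 33, 23 rested on 1 peak. By the centre of the site and the basic annotation, 30 of 33 lay in introns. In Lin- cells, 16 of 17 were intronic and 1 was in a coding exon, while over all sites 78.6% were intronic and 8.21% coding. In CD11b+ cells, 18 of 20 were intronic and 2 were in a 3' UTR, while over all sites 84.5% were intronic and 7.81% in a 3' UTR. The intronic counts depended on the rule. When any overlap with an exon was counted as exonic, 11 of 17 Lin- and 16 of 20 CD11b+ sites stayed intronic. With the comprehensive annotation, 13 of 17 and 16 of 20 did. No other annotated gene overlapped any of the 33 sites on either strand.

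*Tns3* (ENSMUSG00000020422, chr11:8431652-8664535, minus strand) had 11 sites over a gene of 233 kb, 10 of them in introns and 1 in the 3' UTR of its last exon, exon 31. It had 5 sites in Lin- and 9 in CD11b+ cells, and 3.43% of the genes with a site in CD11b+ cells had as many or more. Per length of the gene it had 3.86 sites per 100 kb in CD11b+ and 2.15 in Lin- cells, below the median of 5.82 and 8.66 over genes with a site. *Tns1*, a gene of 214 kb, had 2 sites in CD11b+ and 4 in Lin- cells. The part of gene length in the number of sites was not tested.

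The site of *Tns3* in intron 10, chr11:8533027-8533086, was the most often found of all 33. It had a peak in 5 of 6 Lin- libraries, the 3 biological ones among them, and in all 4 CD11b+ libraries. The Lin- peaks held 4, 5 and 4 reads in biological libraries 1 to 3, and 0, 7 and 3 in the technical libraries 4 to 6. The CD11b+ peaks held 14 and 23 reads in the biological and 20 and 24 in the technical libraries. Every CD11b+ library was above every Lin- library. Per 100000 reads in filtered peaks of the library, the Lin- libraries ranged from 0 to 8.41 with a median of 5.01, and the CD11b+ libraries from 12.8 to 24.7 with a median of 18.1. The site was singled out for its recurrence, so these values are a description. It lies 518 nt from the nearest splice site, and 86.7% of its bases are masked as repeats in the genome file.

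**Figure D3:**
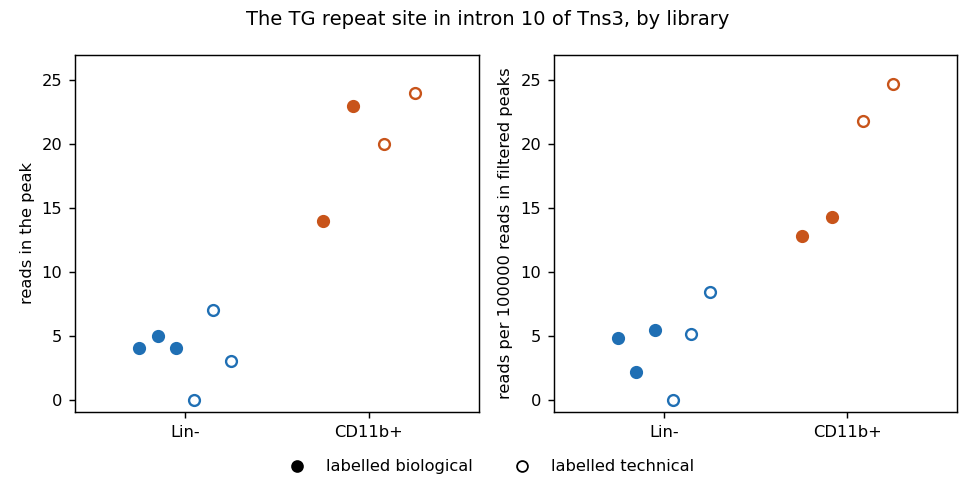
Reads in the peak at the TG repeat of *Tns3* intron 10 (left) and the same per 100000 reads in all filtered peaks of the library (right), for each Lin- (blue) and CD11b+ (orange) eCLIP library, filled where labelled biological. A library without a peak is drawn at 0, and the CD11b+ libraries hold 14 to 24 reads against 0 to 7 in Lin- libraries.

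Further sites of *Tns3* were found in both cell types. The site in intron 4, chr11:8574580-8574639, had 4, 14 and 10 reads in CD11b+ libraries 1, 2 and 3 and 5 reads in Lin- library 2. The site in intron 20, chr11:8465977-8466051, a run of alternating A and G, had 8, 9 and 14 reads in CD11b+ libraries 1, 3 and 4 and 5 reads in Lin- library 2. Both therefore rested on library 2 in Lin- cells. The 3' UTR site, chr11:8432850-8432898, had a peak in CD11b+ libraries 1 and 3, with 11 and 9 reads, and in no Lin- library. The CA repeats in introns 1 and 2 each had a peak in 1 CD11b+ library, with 11 and 7 reads. In Lin- cells alone, *Tns3* had a site 1 nt from a splice site, in intron 18, and another 2 nt from one, in intron 8, with 5 and 4 reads in 1 library each.

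*Tns1* (ENSMUSG00000055322, chr1:73910231-74124449, minus strand) had 6 sites, all in introns, and none was shared between the cell types. The 4 Lin- sites, in introns 19, 21, 26 and 33, each had 1 peak of 3 to 6 reads and lay 0 to 45 nt from a splice site. The 2 CD11b+ sites were both in the long intron 18, at 9103 and 13138 nt from the nearest splice site. The TG repeat among them had a peak in CD11b+ libraries 2, 3 and 4, with 13, 7 and 6 reads.

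*Tns4* (ENSMUSG00000017607, chr11:99065678-99089306, minus strand) had 3 sites, all in CD11b+ cells. The CA repeat in the 3' UTR of exon 13 had a peak in libraries 1, 3 and 4, with 14, 3 and 3 reads. The other 2 sites were in intron 12, and the stronger of them, chr11:99070082-99070157, had 8 and 4 reads in libraries 1 and 3. All 3 sites had 77.0% or more of their bases in masked repeats.

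*Tpm3* (ENSMUSG00000027940, chr3:90072649-90100902, plus strand) had 10 sites, and 8 of them lay within 4.76 kb of the 28.3 kb gene, chr3:90086390-90091151, where several of its exons are close together. Of the 10, 9 were within 100 nt of a splice site and 4 reached across one. The site at the end of an exon, chr3:90087567-90087603, was found in Lin- libraries 1, 4 and 6, with 4, 5 and 3 reads. The site at the start of an exon, chr3:90088320-90088418, was the 1 shared between the cell types, with 11 reads in Lin- library 1 and 5 in the technical CD11b+ library 3. The site at the start of another exon, chr3:90087397-90087455, had 8 reads in CD11b+ library 2 and no peak in Lin- cells. The site in a coding exon, chr3:90086563-90086578, had 3 reads in Lin- library 6 and lies in all 5 basic transcripts. Annotated copies of *Tpm3* exist, *Tpm3-rs2* and *Tpm3-rs7*, and neither carried a peak, although reads of exons may be split between such copies and the gene. Per length of the gene, *Tpm3* had 24.8 sites per 100 kb in Lin- and 14.2 in CD11b+ cells, above the medians of 8.66 and 5.82.

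The other tropomyosins had 1 site each. *Tpm4* (ENSMUSG00000031799, chr8:72134975-72153142, plus strand) had a site in intron 1, chr8:72136909-72136971, with 7 and 13 reads in CD11b+ libraries 2 and 4, 1456 nt from a splice site. *Tpm1* (ENSMUSG00000032366, chr9:67022590-67049406, minus strand) had a site of 4 reads at the end of an exon, chr9:67031354-67031455, where a TG repeat begins within a few bases of the splice site, as the window chr9:67031437-67031466 shows: GACAAGCTGAAGGAGgtaatgtgtgtgtgt, exon in capitals. *Tpm2* (ENSMUSG00000028464, chr4:43514711-43523765, minus strand) had its site in intron 1. *Tns2* (ENSMUSG00000037003, chr15:102100413-102116401, plus strand) had none.

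**Figure D4:**
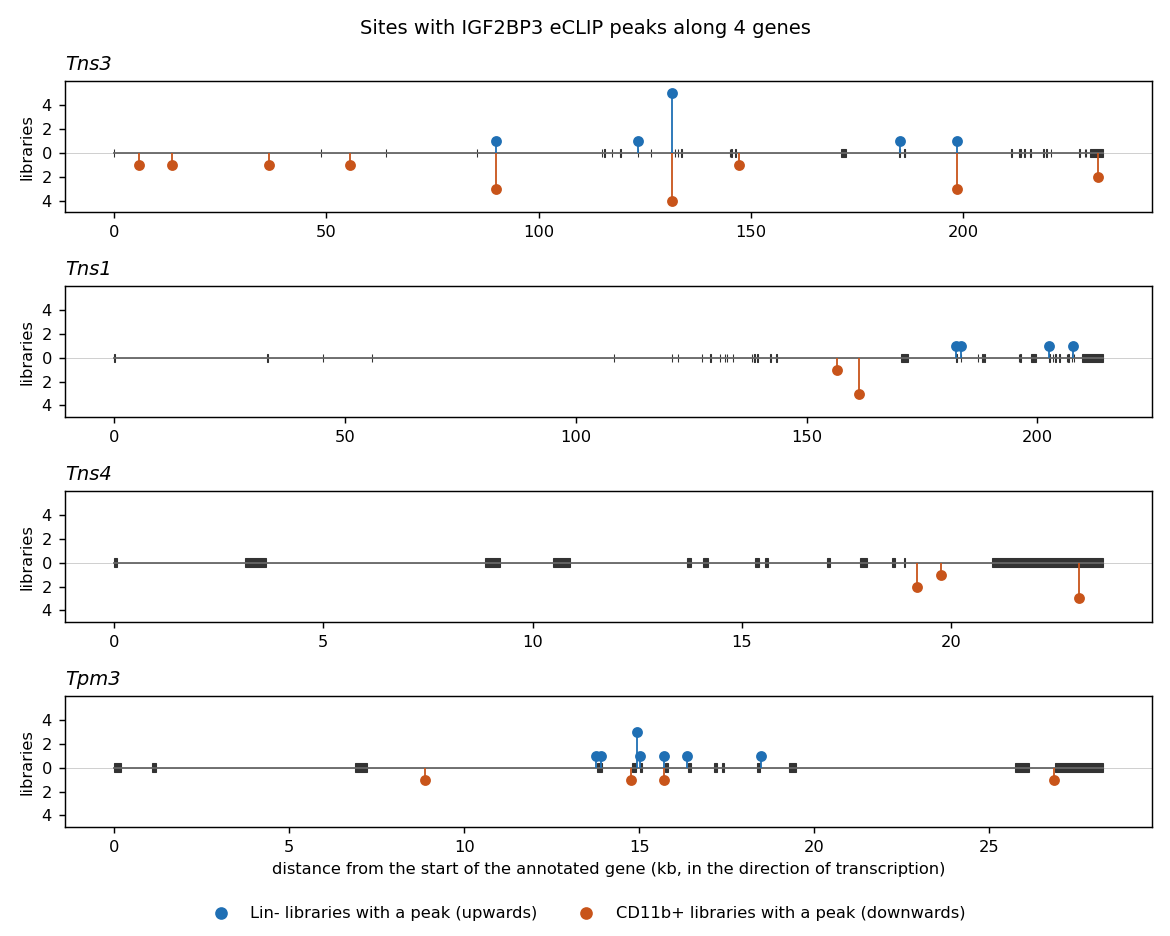
Sites along *Tns3*, *Tns1*, *Tns4* and *Tpm3* by distance from the start of the annotated gene (kb), with exons as black boxes, and the number of libraries with a peak drawn upwards for Lin- (blue, of 6) and downwards for CD11b+ cells (orange, of 4). The *Tns3* site at 131 kb has 5 Lin- and 4 CD11b+ libraries, and the *Tpm3* sites gather between 13.8 and 18.5 kb.

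The location of the sites differed between the cell types on these genes. All 13 sites found in Lin- cells alone were within 100 nt of a splice site, and of the 16 found in CD11b+ cells alone, 3 were. On tensins the split was 6 of 6 against 0 of 11, and on tropomyosins 7 of 7 against 3 of 5. The same was seen over all sites, of which 77.6% of those found in Lin- cells alone and 17.4% of those found in CD11b+ cells alone were within 100 nt of a splice site. With shared sites counted, 14 of 17 Lin- and 4 of 20 CD11b+ sites were near one, against 68.0% and 23.3% of all sites. The 8 genes together therefore went in the direction of the whole data set. The 3 tensin sites found in both cell types, all on *Tns3*, were not near a splice site. Of the sites found in 1 cell type alone, 12 of 13 in Lin- and 11 of 16 in CD11b+ cells rested on 1 library. On tropomyosins, most of the few sites found in CD11b+ cells alone, 3 of 5, were nonetheless near a splice site. By library, 3 of 4, 1 of 4 and 5 of 6 peaks on the 8 genes were near a splice site in the biological Lin- libraries, and 1 of 7 and 2 of 9 in the biological CD11b+ libraries. The lowest Lin- share was that of library 2, in which the share over all peaks was low as well, at 51.4%, against 15.7% to 24.3% over all peaks in the 4 CD11b+ libraries.

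Repeats went the other way. Of the 16 sites found in CD11b+ cells alone, 13 had 50% or more of their bases masked as repeats, against 3 of 13 in Lin- cells alone and 3 of the 4 shared sites. Over all sites, 61.9% of those in CD11b+ cells alone and 16.3% of those in Lin- cells alone were masked to that extent. A 6-mer of alternating T and G (GTGTGT, with the form that begins with T, on the strand of the site) was in 8 of 20 CD11b+ and 3 of 17 Lin- sites of the 8 genes, where the shares over all sites were 24.2% and 8.16%. The CA 6-mers (ACACAC, with the form that begins with C), the kind of sequence IGF2BP3 is known to favor, were in 3 of 20 CD11b+ sites and in 0 of 17 Lin- sites, against 17.2% and 8.48% of all sites. The 3 sites with a CA 6-mer were on *Tns3*, in introns 1 and 2, and on *Tns4*, in the 3' UTR.

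**Figure D5:**
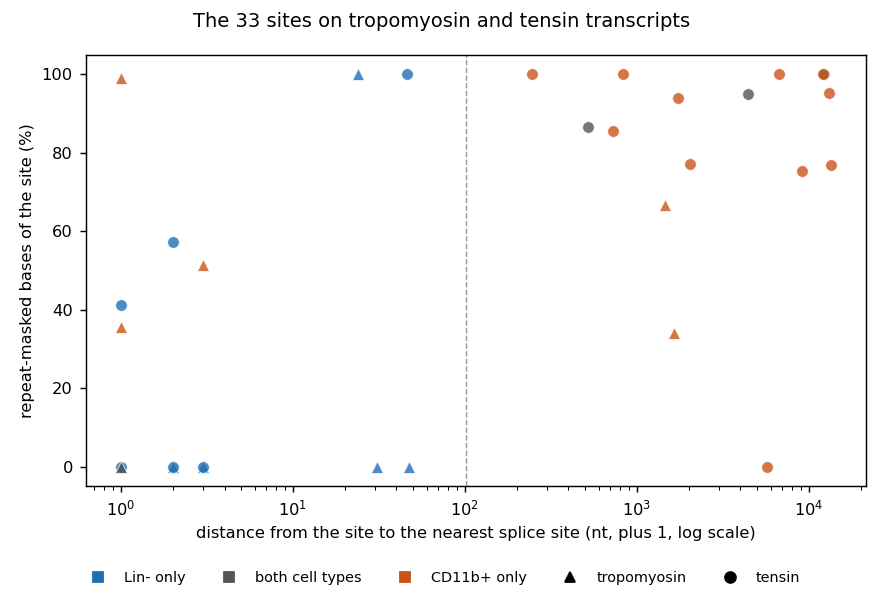
Each of the 33 sites by its distance to the nearest splice site (nt plus 1, log scale) and the share of its bases masked as repeats (%), colored by the cell type it was found in, with triangles for tropomyosins and circles for tensins. The dashed line marks 100 nt. All 13 blue points lie to its left, and 13 of 16 orange points lie to its right.

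Of the 33 sites, 4 were found in both cell types, which is 23.5% of the 17 Lin- and 20.0% of the 20 CD11b+ sites, against 24.9% and 29.2% of all sites. Without Lin- libraries 2 and 5, 2 of the 4 were left, on *Tns3* intron 10 and *Tpm3*. A peak in at least 2 biological libraries of the cell type was found for 1 of 17 Lin- sites and 2 of 20 CD11b+ sites, against 22.9% and 19.0% of all Lin- and CD11b+ sites. Those repeated sites were both on *Tns3*, in introns 10 and 4. On these 8 genes few sites returned in a second biological library.

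The genes that work with tropomyosins and tensins were looked at in 2 lists. Of 25 actin filament genes, 23 were in a gene table, 13 had a site in Lin- cells and 14 in CD11b+ cells, with 86 and 99 sites in all. Of 26 focal adhesion genes, 15 and 17 had a site, with 86 and 82 sites. Over all genes listed, 26.5% had a site in Lin- and 25.6% in CD11b+ cells. The lists were not matched to other genes by RNA level, so no preference of IGF2BP3 is read from these counts. Those with the most sites among actin filament genes were *Myh9*, the heavy chain of non-muscle myosin, with 27 and 31 sites in Lin- and CD11b+ cells, *Lcp1*, the actin-bundling plastin of leukocytes, with 13 and 13, and *Actb*, which encodes actin, with 11 and 11. Among focal adhesion genes they were *Tln1*, the talin that activates integrins, with 20 and 15, *Flna*, an actin crosslinker, with 13 and 19, and *Pxn*, the adaptor paxillin, with 11 and 9.

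By the same rule of no overlap between biological libraries, 2 of 15 actin filament genes tested were higher in CD11b+ cells, *Lcp1* and *Diaph1*, and 1 was higher in Lin- cells, *Cfl1*. Among 18 focal adhesion genes tested, *Pxn* and *Vasp* were higher in CD11b+ cells and none in Lin- cells. *Diaph1*, *Cfl1* and *Vasp* were named after their values were seen. For *Lcp1* the mean rates were 5.97 in Lin- and 11.3 in CD11b+ cells, and for *Pxn* they were 5.08 and 13.1. The median difference, CD11b+ minus Lin-, was 0.50 per 10000 for the actin filament list and 0.43 for the focal adhesion list, against -0.20 over all 9290 genes. A difference of 0.50 is what 1 peak in CD11b+ library 2 gave *Tpm1*, and 31.7% of the 9290 genes had 1 peak alone. No shift of the lists is read from these medians. With 10.6% and 9.34% of all genes called in the directions higher in CD11b+ and higher in Lin- cells, these counts stand beside the background without a test.

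Over the 10 eCLIP libraries, the genes whose peak rate went most with that of *Tns3* among 2080 genes with at least 10 peaks were *Pstpip1* (Pearson's r = 0.97), *Zfp839* (0.95) and *Dhdh* (0.93). For *Tpm3*, *Mat2a* (0.88) and *Cct4* (0.88) were among them. These coefficients are a description of libraries that fall into 2 cell types, and some of them are technical repeats, so the points are not independent.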

How the data were processed

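IGF2BP3 eCLIP peak lists of 10 libraries, peak lists of their 10 smInput libraries and 1 gene table per cell type were used. The submitters' processing notes name STAR 2.5.3a, Bowtie2, DESeq2 and the mm10 build. The authors called eCLIP peaks per library with CLIPper, deposited each with a p-value of at most 0.05, and removed those that overlap the smInput. Inputs and eCLIP libraries differed in deduplication and calling settings per the file headers. For RNA-seq, the deposited signal used here was the authors' mean normalized count of each gene over both genotypes of a cell type. The gene tables also hold the authors' own comparison of the genotypes (fold change, its error, statistic and p) and labels of peak overlap and threshold, and these 8 columns were not used.

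Groups and replicate kinds came from the sample labels, and technical libraries were not paired with biological ones, since the labels do not pair them. Peaks were assigned by gene ID and merged where they overlapped by 1 nt on a strand, separately for each cell type and over both. Sites were located by their centre in GENCODE M21 (basic set, GRCm38), in the order coding exon, 3' UTR, 5' UTR, noncoding exon and intron. All 84 transcripts of the 8 genes had the sequence of the reference genome, and masked bases are its lower-case letters. Peak rates are filtered peaks per 10000 of the library and were compared over libraries labelled biological, a gene being called where the groups did not overlap, for 9290 genes. A two-sided exact permutation test was also run and tested on simulated data, but its p-values are not given for the 8 genes, since their peaks were among the values that chose them, and 3 against 2 libraries allow none below 0.1. Read depth is unknown. Genes were named by rule: the 8 genes, the 3 genes of each partner list with the most sites, and the 3 genes with at least 10 peaks and the highest Pearson's r with *Tns3* and with *Tpm3*. Of the genes this rule names, 1 is not reported here. Members, lists and markers were chosen with earlier results of these data known. Python 3.11.15, pandas 2.3.3, NumPy 2.4.6, SciPy 1.17.1 and matplotlib 3.10.9 were used. Alternatives covered the smInput filter, a p-value below 0.001, scaling, technical libraries, single libraries, merging within 100 nt, location rules, motifs and the length of the gene, and those on 5 reads and on Lin- libraries 2 and 5 were added after the data had been seen.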

Additional observations from a re-analysis of the deposited data

Results flagged for a closer look

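Of 14 sets of values by library, 2 held a library far from the others by Dixon's criterion. Both are sets with 1 peak in 1 library and 0 in all others, which meet the criterion by construction, so the usual chance of about 1 in 20 does not apply. CD11b+ library 2 had a *Tpm1* rate of 0.995 peaks per 10000 while the other 3 CD11b+ libraries had 0, and this is 1 peak of 4 reads. Lin- library 5 had a *Tpm2* rate of 1.54 per 10000 while the other 5 Lin- libraries had 0, and this is 1 peak of 3 reads.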

How the results depend on the processing

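The number of genes whose biological libraries did not overlap was 1 (*Tns3*) and stayed 1 with a p-value below 0.001 and with all libraries. It was also 1 before the smInput filter, but the filter removed no peak of these genes, so the library totals alone changed. It was 0 without scaling and 0 with at least 5 reads per peak, and 1 to 3 when 1 biological library was left out, with *Tns3* called each time. In the replicate block, which took differences within numbers 1 and 2, it was 1 as well, with a *Tns3* difference of 2.16. The numbers mark no shared animal or culture in the labels. The direction turned for *Tpm3*, to 0.68 with at least 5 reads, and for *Tns1*, to 0.14 with all libraries, 0.50 in the replicate block and 0.50 and 0.23 without Lin- library 3 or CD11b+ library 1, within a range of -0.77 to 0.50 when 1 biological library was left out. Both genes had 0 to 3 peaks per library.

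Merged sites numbered 4 in Lin- and 12 in CD11b+ cells with a p-value below 0.001, and 8 in Lin- cells with at least 5 reads. With biological libraries alone they numbered 12 in Lin- and 14 in CD11b+ cells. With 1 of these libraries left out they numbered 7 to 9 in Lin- and 7 to 9 in CD11b+ cells. Without Lin- libraries 2 and 5, 2 sites were shared in place of 4. Sites repeated in biological libraries fell to 0 in Lin- and 1 in CD11b+ cells with a p-value below 0.001. CA sequence was in 1 Lin- site when sites were extended by 50 nt, and in 1 for the 4-mer CACA. The median percentile of the 8 levels was 72.1 in Lin- and 60.2 in CD11b+ cells, 74.3 and 62.6 with the longest transcript, and 55.6 and 36.4 among genes with a level of 10 or more. The causes were not tested.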
